A study of Mus musculus with 6 samples.

Results

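Glycolysis and the citric acid cycle were followed through 33 genes named by symbol, which cover glucose transporters, glycolytic enzymes, lactate dehydrogenases, the pyruvate dehydrogenase complex, enzymes of the cycle and malate dehydrogenases. All 33 symbols had an entry among the 24421 of the deposited table, and 32 passed the filter on low values that left 13010 genes for testing. The study sequenced RNA from whole hearts of C57BL6/J mice aged 4 weeks, in 2 libraries from immunoprecipitates of an antibody against Cnot3 (Cnot3 RIP), 2 from a control antibody (control IgG RIP, or IgG for short) and 2 from the lysate itself (Input). RNA immunoprecipitation (RIP) enriches a protein by antibody and sequences the RNA held with it, and Cnot3 belongs to the CCR4-NOT deadenylase, which shortens the poly(A) tails of mRNAs. The submitters count 2 experiments and the labels do not say whether these were separate animals, so p-values cover only how these libraries differ among themselves, and that spread may be technical.

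Glycolysis splits glucose into pyruvate in the cytosol, lactate dehydrogenase interconverts pyruvate and lactate, and the pyruvate dehydrogenase complex carries pyruvate into the citric acid cycle inside mitochondria. The heart draws most of its energy from fatty acids and takes up glucose and lactate as further fuels, and its cardiomyocytes hold many mitochondria and large amounts of the enzymes of the cycle. Several glycolytic steps have a form typical of striated muscle, such as Pgam2 and Eno3, beside a form found in most tissues, such as Pgam1 and Eno1.

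Levels are given in scaled CPM, the deposited CPM (reads relative to library size) rescaled so that the bulk of the genes lines up between libraries. The libraries held 15713318 to 33479580 reads, of which Rn45s, the ribosomal RNA precursor, took 51.1% to 53.1% with the Cnot3 antibody, 59.4% to 60.2% with control IgG and 78.3% to 79.2% in Input. The 8 cardiomyocyte markers were all measured, with Myh6 between 8216 and 23525 scaled CPM, and the 7 skeletal muscle markers summed to 0.821 to 2.31 scaled CPM with Myf6 at 0. The 4 haemoglobin genes were listed at 0 in every library, while Alas2, the other erythroid marker, stood at 6.09 to 13.7 scaled CPM. How much blood RNA the libraries held was not tested. Together the 33 genes took 1.43% ± 0.0115 of the reads other than Rn45s in Cnot3 RIP (SD, n = 2). They took 1.49% and 1.31% in the IgG libraries and 1.95% ± 0.217 in Input (SD, n = 2), and each RIP library stood below both Input libraries. In bulk RNA, fewer cells of a type and less RNA per cell cannot be told apart.

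Of the 33 genes, 4 that are known as abundant in most tissues were at or near 0 in every library. The sequences shown first are stretches of these 4 genes that other genes also carry, each 60 bases of coding sequence inside a single exon, read from the GENCODE M21 transcripts and placed on GRCm38 (mm10). For Gapdh and Pgk1 the stretch shown is the one found unbroken in the most other genes. For Pgam1 and Eno1 the same coding positions of the muscle form are given, and capitals mark the bases that differ within each pair.
Gapdh, coding bases 406 to 465, chr6:125162897-125162956, minus strand: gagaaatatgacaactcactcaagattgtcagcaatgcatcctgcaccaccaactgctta
Pgk1, coding bases 808 to 867, chrX:106200208-106200267, plus strand: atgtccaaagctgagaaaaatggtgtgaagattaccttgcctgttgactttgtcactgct
Pgam1, coding bases 145 to 204, chr19:41915610-41915669, plus strand: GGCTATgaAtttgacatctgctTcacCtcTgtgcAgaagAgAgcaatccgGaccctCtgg
Pgam2, coding bases 145 to 204, chr11:5803485-5803544, minus strand: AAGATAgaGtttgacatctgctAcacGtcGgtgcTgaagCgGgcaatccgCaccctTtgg
Eno1, coding bases 445 to 504, chr4:150245115-150245174, plus strand: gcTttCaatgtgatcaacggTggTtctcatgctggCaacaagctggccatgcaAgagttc
Eno3, coding bases 445 to 504, chr11:70660660-70660719, plus strand: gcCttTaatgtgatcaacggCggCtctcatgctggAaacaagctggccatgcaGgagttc
The Gapdh stretch occurred in transcripts of 64 other genes, the Pgk1 stretch in 3, the Pgam1 stretch in 2 and the Eno1 stretch in 5. The Pgam2 and Eno3 stretches, which differ from their partners at 15 and 6 of the 60 bases, occurred in no other gene. Over the whole coding sequence Pgam2 matched Pgam1 at 567 of 759 bases (74.7%) and Eno3 matched Eno1 at 999 of 1302 bases (76.7%).

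Eno1, the enolase of most tissues, had 0 reads in all 6 libraries, which allows at most 3 reads or 0.0899 to 0.277 scaled CPM depending on the library. Gapdh, which oxidises glyceraldehyde 3-phosphate and is a common loading control, had 13 and 7 reads in the Cnot3 RIP libraries, 8 and 10 in the IgG libraries, and 9 and 12 in the Input libraries. Pgam1, the phosphoglycerate mutase of most tissues, had 19 and 25 reads in the Cnot3 RIP libraries, 17 and 14 in the IgG libraries, and 9 and 24 in the Input libraries. Pgk1, the phosphoglycerate kinase, had 43 and 65 reads in the Cnot3 RIP libraries, 43 and 42 in the IgG libraries, and 31 and 45 in the Input libraries. These 3 genes thus stayed under 3 scaled CPM in every library, at 0.210 to 0.831 for Gapdh, 0.634 to 1.16 for Pgam1 and 1.53 to 2.86 for Pgk1.

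Of the 33, the 4 near-empty genes had the largest share of sequence found elsewhere, counted as the share of all 50-base windows of the transcript that a transcript of another gene holds on either strand. For Gapdh this share was 82.5%, spread over 222 other genes of which 213 are annotated as pseudogenes, and the pseudogene Gm7336 alone held 82.5%. Eno1 shared 72.2% of its windows with 9 genes, led by Eno1b, an enolase gene that was itself at 0 reads in all libraries and held 70.5%. Pgk1 shared 68.0% with 5 genes, led by Pgk1-rs7 at 67.9%, and Pgam1 shared 41.5% with 4 genes, led by Pgam1-ps2. With 36-base windows Pkm, which was well measured, shared 45.6% and so passed Pgam1 at 42.0%. Of the other 29 genes, 19 had no shared window, and the highest shares were 34.4% in Pkm, 30.3% in Pdhb, 27.0% in Ldhb and 25.3% in Gpi1. Per kilobase of transcript, 28 of these 29 genes averaged 17.9 to 247 scaled CPM in Input, and the exception was Slc2a1 at 1.46 scaled CPM per kb with 1.74% of its windows shared. How the authors' counting treated reads that fit several genes is not given in the sources used here, and its part in these low values was not tested. Values of Gapdh, Pgk1, Pgam1 and Eno1 are therefore uncertain, and without them the median log2 fold change of the pathway was −0.05 for Cnot3 RIP against control IgG RIP, −0.45 for Cnot3 RIP against Input and −0.36 for control IgG RIP against Input.

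**Figure D1:**
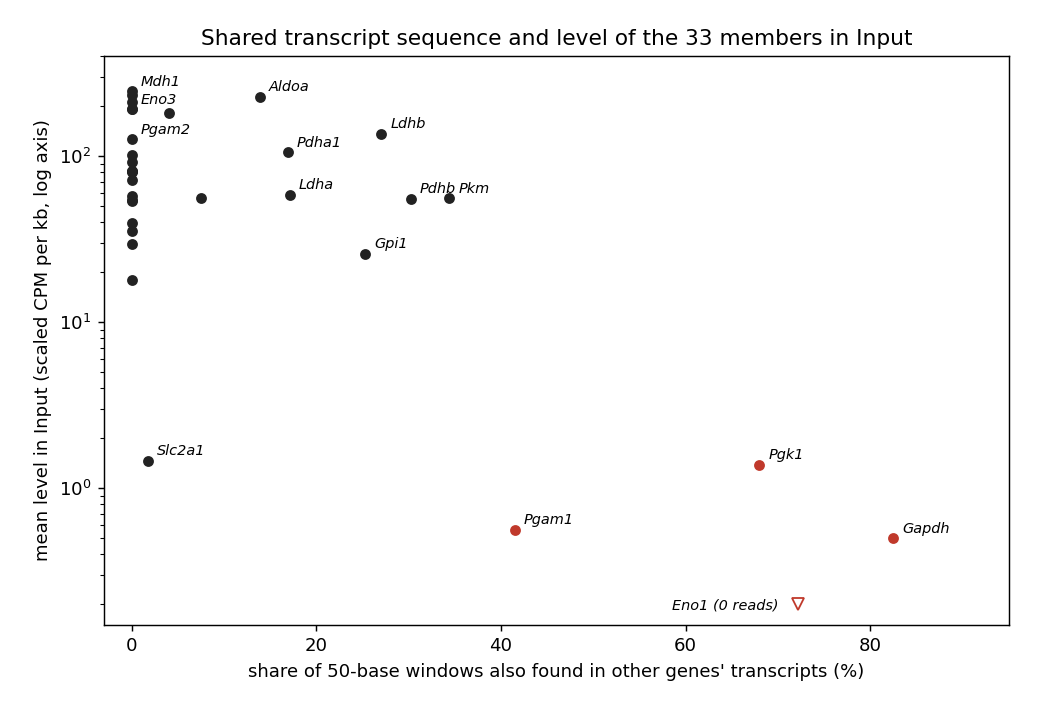
Share of each transcript's 50-base windows that also occur in transcripts of other genes (horizontal axis, percent) against the mean level in the 2 Input libraries (vertical axis, scaled CPM per kb, log axis), 1 point per gene. Pgam1, Pgk1 and Gapdh, drawn in red, lie at the bottom right with shares from 41.5% to 82.5%, the open triangle marks Eno1 with 0 reads, and the other genes except Slc2a1, with shares up to 34.4%, lie at 17.9 scaled CPM per kb or higher.

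Among the genes with measurable levels, both malate dehydrogenases, several enzymes of the cycle and the muscle forms Aldoa and Eno3 were the most abundant per length. In Input the highest levels per kilobase were 247 scaled CPM for Mdh1, the malate dehydrogenase of the cytosol, 234 for Ogdh, the first subunit of the oxoglutarate dehydrogenase complex, and 228 for Aldoa, the aldolase of muscle. Mdh2, the malate dehydrogenase of mitochondria, stood at 212 scaled CPM per kb, Eno3 at 192, Idh2, the NADP-dependent isocitrate dehydrogenase, at 191, and Cs, citrate synthase, at 181. The 2 Input values of each of these genes overlapped those of its neighbours in the order, and Mdh2 for example averaged 309 ± 80.4 scaled CPM before division by length (SD, n = 2). In both precipitates Ogdh had the highest mean per length, at 229.8 scaled CPM per kb with the Cnot3 antibody and 236 with control IgG. Its IgG libraries were far apart, at 1302 and 646 scaled CPM before division by length, and its place there rested on replicate 1. Mdh1 averaged 172 scaled CPM per kb with the Cnot3 antibody and 194 with control IgG. Apart from the near-empty genes the lowest in Input was Slc2a1 at 1.46 scaled CPM per kb, followed by Hk1, a hexokinase, at 17.9 and Gpi1, glucose phosphate isomerase, at 25.8.

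**Figure D2:**
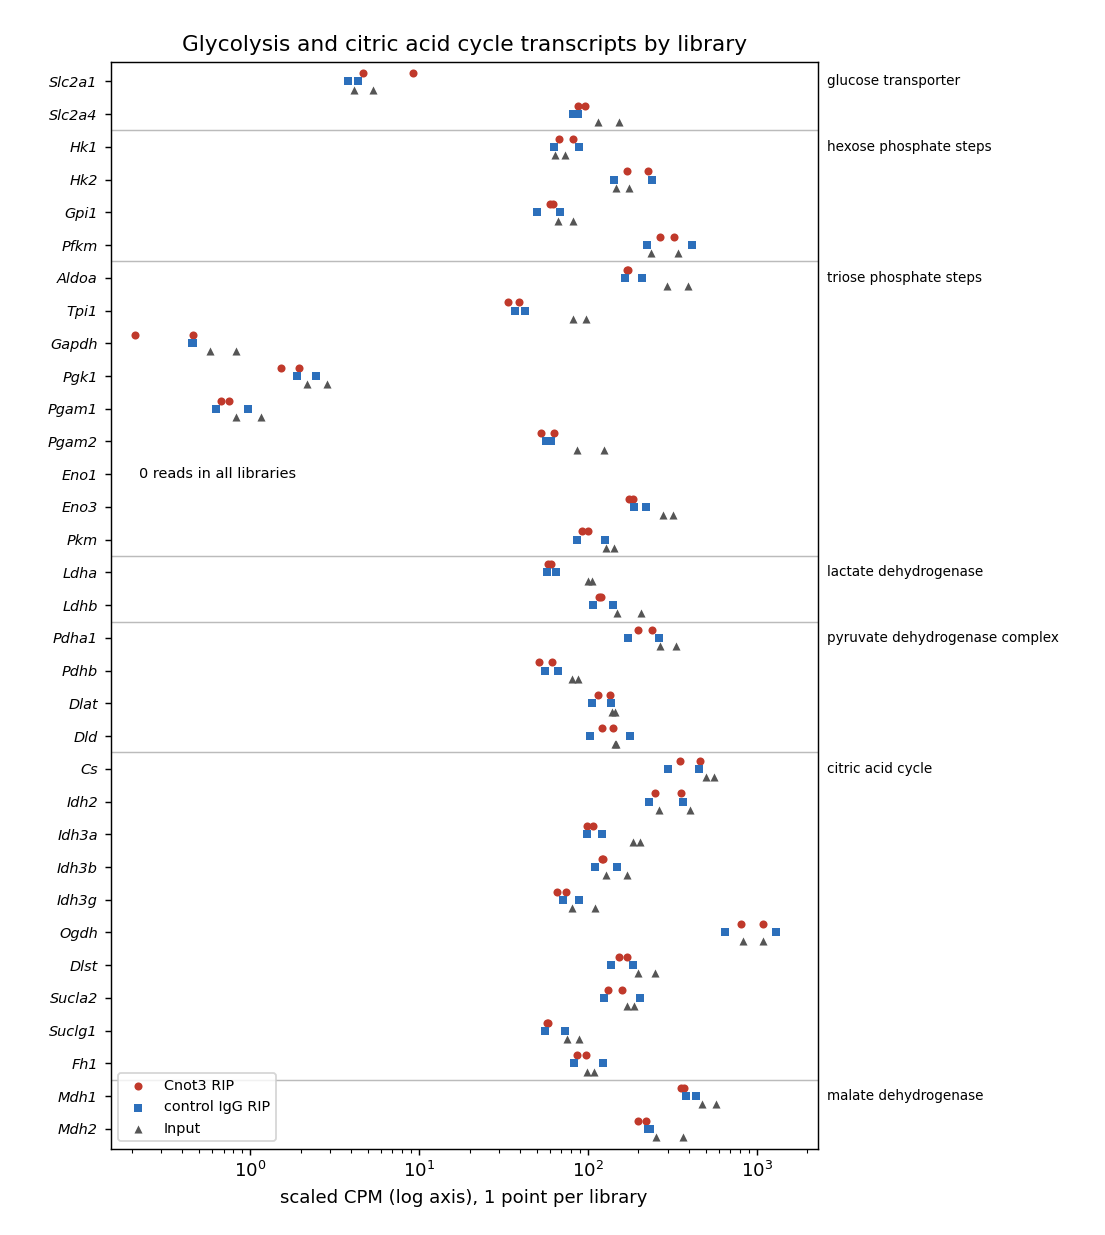
Level of each gene in each library (horizontal axis, scaled CPM, log axis), grouped by role from glucose transporters at the top to malate dehydrogenases at the bottom. Circles are Cnot3 RIP, squares control IgG RIP and triangles Input, 1 point per library, and on this scale Input points lie to the right for most genes between Aldoa and Mdh2, while Hk1, Hk2 and Pfkm overlap between groups.

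Setting the Cnot3 antibody against control IgG asks what it brought down beyond an unrelated antibody, and none of the 33 genes passed the test there. Limma called 0 of the 32 tested genes at an adjusted p under 0.05 (Benjamini-Hochberg over all 13010 genes), beside 1.81% of all tested genes called, 1.54% higher and 0.277% lower with the Cnot3 antibody. In limma 0 of the 32 reached an unadjusted p under 0.05. At the adjusted threshold edgeR's quasi-likelihood test and DESeq2 on the recovered reads also called 0. At an unadjusted p under 0.05 the quasi-likelihood test had 1 of the 32, higher, and DESeq2 had 0. Limma likewise had 1 higher on the deposited CPM and 1 higher on CPM without Rn45s. The median log2 fold change of the 32 was −0.06, beside −0.00 over all tested genes, with 22 of 32 below 0 and a range of −0.30 to 0.66. For 30 of the 32 the 95% interval of the fold change lay inside a 2-fold difference in either direction, so a larger change is outside the interval for those 30. The exceptions were Slc2a1 and Gapdh. Without the near-empty genes, whose values are uncertain, the count was 28 of 29. The values of 28 genes overlapped between the groups, while 1 gene was higher and 3 were lower in both Cnot3 RIP libraries than in both control IgG RIP libraries, beside 24% and 21.8% of all tested genes.

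The direction of that small shift rested on single libraries. Without control IgG RIP replicate 1 the members' median was 0.11, and without control IgG RIP replicate 2 it was −0.27, so the sign of the median changed with the library left out. On the deposited CPM the median was 0.25, beside 0.30 over all tested genes, and 20 of the 32 changed sign, while 21 of the 32 lay below the median of all tested genes there and 22 of the 32 after rescaling. The scalings differ by a single factor per library, so the counts below the median are close by construction.

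Slc2a1, the glucose transporter that supplies basal uptake in many cell types, had the largest difference from control IgG RIP. It stood at 4.70 and 9.23 scaled CPM in the Cnot3 RIP libraries, 4.38 and 3.81 in the IgG libraries, and 4.16 and 5.36 in the Input libraries. Only Cnot3 RIP replicate 2 was clearly high, and Cnot3 RIP replicate 1 lay close to the control libraries and between the Input libraries. The log2 fold change against control IgG RIP was 0.66 (SE 0.33, limma adjusted p = 0.353), and against Input it was 0.46 (SE 0.33, limma adjusted p = 0.406). The difference from control IgG RIP became 1.14, with a limma adjusted p of 0.0449, when Cnot3 RIP replicate 1 was left out, and without Cnot3 RIP replicate 2 the difference from Input was −0.00.

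Slc2a4, the insulin-responsive glucose transporter of muscle and fat, was far more abundant. It stood at 87.2 and 96.0 scaled CPM in the Cnot3 RIP libraries, 87.5 and 81.6 in the IgG libraries, and 115 and 154 in the Input libraries. All 4 RIP libraries lay below both Input libraries, and Cnot3 RIP and control IgG RIP overlapped. Its log2 fold change was 0.11 against control IgG RIP (SE 0.23) and −0.54 against Input (SE 0.23, limma adjusted p = 0.170).

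The first steps of glycolysis, where glucose is phosphorylated and turned into fructose bisphosphate, overlapped between the groups for Hk1, Hk2 and Pfkm, while both Cnot3 RIP values of Gpi1 lay below both Input values. Hk2, the hexokinase of insulin-sensitive tissues, stood at 172 and 227 scaled CPM in the Cnot3 RIP libraries, 239 and 144 in the IgG libraries, and 147 and 177 in the Input libraries. Hk1, the hexokinase of most tissues, stood at 81.5 and 68.0 scaled CPM in the Cnot3 RIP libraries, 88.6 and 63.6 in the IgG libraries, and 64.1 and 73.9 in the Input libraries. For both genes the control IgG RIP libraries spanned the widest range and contained the Cnot3 RIP values. Pfkm, the muscle phosphofructokinase that commits sugar to glycolysis, ranged from 225 to 413 scaled CPM over the 6 libraries, and its 2 extremes were both control IgG RIP libraries. Gpi1 averaged 60.8 ± 1.78 scaled CPM with the Cnot3 antibody and 59.2 ± 13.2 with control IgG (SD, n = 2 each), and its Input libraries were at 66.7 and 82.2. Against Input the log2 fold changes in Cnot3 RIP were 0.29 for Hk2, 0.11 for Hk1, 0.05 for Pfkm and −0.28 for Gpi1, none past the threshold in limma.

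Against Input, which asks what either precipitate holds relative to the lysate, the pathway as a whole stood lower in Cnot3 RIP than the average gene. The median log2 fold change of the 32 tested genes was −0.45, beside 0.06 over all tested genes, and 28 of the 32 were below 0. Limma called 3 of the 32 lower and 0 higher at an adjusted p under 0.05, where 8.32% of all tested genes were called, 2.47% lower and 5.86% higher. In 26 of the 32 both Cnot3 RIP values lay below both Input values, beside 26.9% of all tested genes, and in none did both lie above, beside 30.6%. The other pair of values, control IgG RIP against Input, shares the Input libraries, and there the median was −0.35 beside 0.01 over all tested genes, with 29 of 32 below 0. Limma called 1 of the 32 lower and 0 higher in this comparison, where 4.07% of all tested genes were called, 1.49% lower and 2.58% higher, and 18 of the 32 had both control IgG RIP values below both Input values and 0 had both above, beside 29.3% and 29.7% of all tested genes.

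The sign of these differences depends on how the libraries are scaled. On the deposited CPM, where Rn45s counts toward the library size, the median over all tested genes became 1.02 in Cnot3 RIP against Input and that of the 32 genes became 0.60, and 26 of the 32 changed sign. For control IgG RIP against Input the medians became 0.70 over all tested genes and 0.39 over the 32, and 25 of the 32 changed sign. Relative to other genes the position was alike under both scalings: 29 of the 32 lay below the median of all tested genes after rescaling and 27 of the 32 did on the deposited CPM, in each of these 2 comparisons. All values given as lower than Input in the following are relative to the bulk of the genes in this sense.

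**Figure D3:**
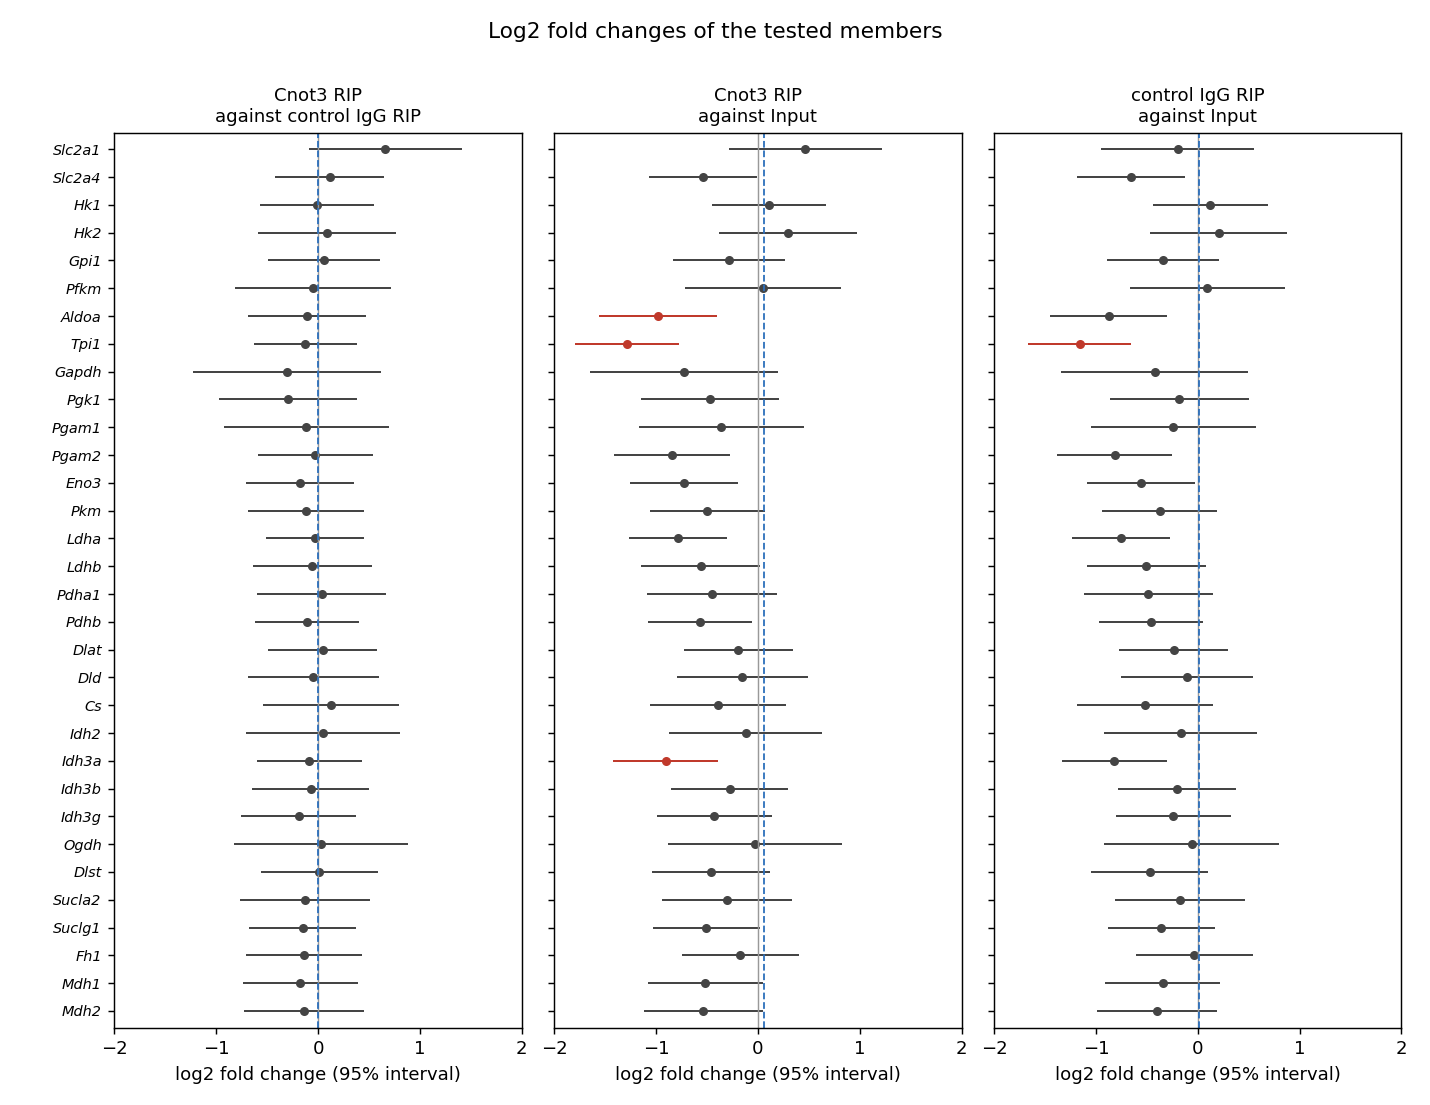
Log2 fold change of scaled CPM with its 95% interval for the 32 tested genes in Cnot3 RIP against control IgG RIP (left), Cnot3 RIP against Input (middle) and control IgG RIP against Input (right). Red marks genes with a limma adjusted p under 0.05, the dashed line is the median of all 13010 tested genes, and the intervals lie around 0 on the left and mostly to the left of the dashed line in the other panels, whereas on the deposited CPM 20, 26 and 25 of the genes change sign in the left, middle and right panels.

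In Cnot3 RIP against Input the lowest median of any role was in the middle of glycolysis, where fructose bisphosphate is split into triose phosphates and these are turned into pyruvate. All 8 tested genes of these steps were below both Input libraries in Cnot3 RIP, at a median of −0.73 on the log2 scale. In control IgG RIP 6 of the 8 were below both, at a median of −0.49, and there the lactate dehydrogenases had the lower median of −0.63. Without the near-empty Gapdh, Pgk1 and Pgam1 the medians of the remaining 5 genes were −0.84 for Cnot3 RIP against Input and −0.82 for control IgG RIP against Input. Tpi1, which interconverts the triose phosphates, was at 39.5 and 33.7 scaled CPM in the Cnot3 RIP libraries, 42.5 and 37.2 in the IgG libraries, and 81.8 and 97.4 in the Input libraries. No RIP library came near either Input library, and the 2 kinds of precipitate overlapped each other. Relative to Input it was lower in Cnot3 RIP, at −1.28 on the log2 scale (SE 0.22, adjusted p = 0.0151 in limma), and in control IgG RIP, at −1.16 (SE 0.22, adjusted p = 0.0284 in limma). Tpi1 was also the only called gene of the 33 whose fold change against Input stayed below 0 on the deposited CPM in both comparisons, at −0.21 and −0.40, without passing the threshold there.

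Aldoa was at 172 and 173 scaled CPM in the Cnot3 RIP libraries, 209 and 165 in the IgG libraries, and 295 and 394 in the Input libraries. The Cnot3 RIP values were nearly equal and lay inside the range of control IgG RIP, and all 4 lay below both Input values. Its log2 fold change was −0.98 in Cnot3 RIP against Input (SE 0.25, limma adjusted p = 0.0456) and −0.87 in control IgG RIP against Input (SE 0.25, limma adjusted p = 0.0819). On the deposited CPM these values were 0.10 and −0.11. Pgam2, the mutase of muscle, was at 63.5 and 52.9 scaled CPM in the Cnot3 RIP libraries, 57.0 and 61.1 in the IgG libraries, and 86.3 and 126 in the Input libraries. Eno3, the enolase of muscle, was at 186 and 175 scaled CPM in the Cnot3 RIP libraries, 222 and 188 in the IgG libraries, and 279 and 322 in the Input libraries. For both muscle forms every RIP value lay below every Input value, at log2 fold changes in Cnot3 RIP of −0.84 for Pgam2 (limma adjusted p = 0.0669) and −0.73 for Eno3 (limma adjusted p = 0.0819). Eno3 was in addition below both control IgG RIP libraries, by a log2 fold change of −0.18 (SE 0.23) that did not pass the threshold. Pkm, the pyruvate kinase that ends glycolysis, averaged 96.2 ± 5.23 scaled CPM with the Cnot3 antibody, 106 ± 28.6 with control IgG and 136 ± 9.62 in Input (SD, n = 2 each).

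Leaving out some single libraries, which leaves 1 library in that group, ended these calls, while leaving out others did not. For Tpi1 in Cnot3 RIP against Input the limma adjusted p was 0.0642 without Cnot3 RIP replicate 2, 0.0744 without Input replicate 1 and 0.154 without Input replicate 2, with log2 fold changes of −1.17, −1.46 and −1.21. In control IgG RIP against Input it was 0.113 to 0.257 when a library of either group was left out. For Aldoa the adjusted p was 0.0533 without control IgG RIP replicate 2 and 0.0741 to 0.310 when each of the 4 libraries compared was left out in turn, at log2 fold changes of −1.24 to −0.82.

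Lactate dehydrogenase, whose subunits A and B form tetramers in all mixtures, followed the same order. Ldha was at 60.9 and 58.3 scaled CPM in the Cnot3 RIP libraries, 64.8 and 57.1 in the IgG libraries, and 101 and 105 in the Input libraries. Ldhb, the subunit that prevails in heart, was at 121 and 117 scaled CPM in the Cnot3 RIP libraries, 142 and 108 in the IgG libraries, and 148 and 208 in the Input libraries. Both RIP groups lay below Input for both genes, and Cnot3 RIP lay inside the range of control IgG RIP. Ldha missed the threshold narrowly in Cnot3 RIP against Input (log2 fold change −0.79, SE 0.21, limma adjusted p = 0.0503), and Ldhb differed by −0.56 (SE 0.26, limma adjusted p = 0.194).

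None of the 4 subunits of the pyruvate dehydrogenase complex passed the threshold in any comparison. Pdha1 and Pdhb, the catalytic subunits that release carbon dioxide, had log2 fold changes of −0.45 and −0.57 in Cnot3 RIP against Input, and of −0.48 and −0.46 in control IgG RIP against Input. Dlat, which carries the acetyl group, and Dld, which reoxidises the complex and is shared with oxoglutarate dehydrogenase, had −0.19 and −0.15 in Cnot3 RIP against Input, and −0.24 and −0.11 in control IgG RIP against Input. Against control IgG RIP all 4 subunits in Cnot3 RIP lay between −0.11 and 0.05 and overlapped.

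In the citric acid cycle, 1 of 10 genes was called. Idh3a, the catalytic subunit of the NAD-dependent isocitrate dehydrogenase, was at 99.2 and 108 scaled CPM in the Cnot3 RIP libraries, 122 and 99.0 in the IgG libraries, and 186 and 203 in the Input libraries. The RIP libraries overlapped each other and stood well below Input, with a log2 fold change of −0.90 for Cnot3 RIP against Input (SE 0.22, limma adjusted p = 0.0413) and of −0.82 in control IgG RIP against Input (SE 0.22, limma adjusted p = 0.0743). On the deposited CPM they were 0.18 and −0.06. Idh3b and Idh3g, the partner subunits of Idh3a in the same enzyme, differed from Input by −0.28 and −0.43 in Cnot3 RIP and by −0.20 and −0.24 in control IgG RIP, all short of the threshold. The Idh3a call in Cnot3 RIP was lost when any 1 of the 4 libraries compared was left out (limma adjusted p 0.0739 to 0.263) and without control IgG RIP replicate 2 (limma adjusted p = 0.0516).

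The remaining 7 genes of the cycle had log2 fold changes from −0.51 to −0.03 in Cnot3 RIP against Input. Ogdh was the closest to 0, at −0.03, and its control IgG RIP libraries, at 1302 and 646 scaled CPM, were its highest and its lowest. Dlst, the partner of Ogdh that carries the succinyl group, differed from Input by −0.46 (SE 0.25) in Cnot3 RIP and by −0.47 in control IgG RIP. Cs, which joins acetyl-CoA to oxaloacetate, differed by −0.39 (SE 0.29) in Cnot3 RIP and Idh2 by −0.12 (SE 0.33). Suclg1 and Sucla2, the subunits of the ADP-forming succinate-CoA ligase, differed by −0.51 and −0.30, and Fh1, fumarase, by −0.17. Mdh1 and Mdh2 were below both Input libraries in Cnot3 RIP, by −0.52 and −0.54, and also below both control IgG RIP libraries, by −0.17 and −0.14, and neither passed the threshold.

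How far a gene stood below Input went with the length of its transcript. The median transcript of the 33 genes was 2122 bases long, beside 3152 bases over the tested protein-coding genes with an annotated transcript. Across the 32 tested genes, the log2 fold change in Cnot3 RIP against Input and the log2 transcript length had a Spearman rho of 0.71, beside 0.50 across 12025 tested protein-coding genes. In control IgG RIP against Input rho was 0.51 across the 32 genes and 0.45 across all. In Cnot3 RIP against control IgG RIP it was 0.63 across the 32 genes and 0.11 across all. These correlations describe genes measured in the same 6 libraries, and genes are not independent replicates.

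Split at the middle length of 2403 bases, with the 4 near-empty genes and Idh3a at the split itself left out, the 14 shorter genes stood at a median of −0.55 on the log2 scale in Cnot3 RIP against Input and the 14 longer genes at −0.18. In control IgG RIP against Input the medians were −0.43 for the shorter and −0.22 for the longer genes. Relative to the median of all tested genes in the same of 10 equal-sized classes of transcript length, the 29 genes other than the near-empty ones stood at a median of −0.23 in Cnot3 RIP against Input, with 23 of 29 below, and at −0.15 in control IgG RIP against Input, with 20 of 29 below. Of these 29, 12 in Cnot3 RIP against Input and 8 in control IgG RIP against Input lay below the lower quartile of their class. In the same order, 1 and 0 lay above the upper quartile. By definition 1 in 4 genes of a class lies below its lower quartile, and the 8 of 29 are close to that share. Below it in both comparisons were, among others, Tpi1 (1607 bases), Aldoa (1511 bases), Idh3a (2403 bases), Slc2a4 and Cs. Slc2a1, at 3260 bases, and Hk2, at 5513 bases, had the 2 highest fold changes in Cnot3 RIP against Input. The part of transcript length in the differences of single genes was not tested.

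**Figure D4:**
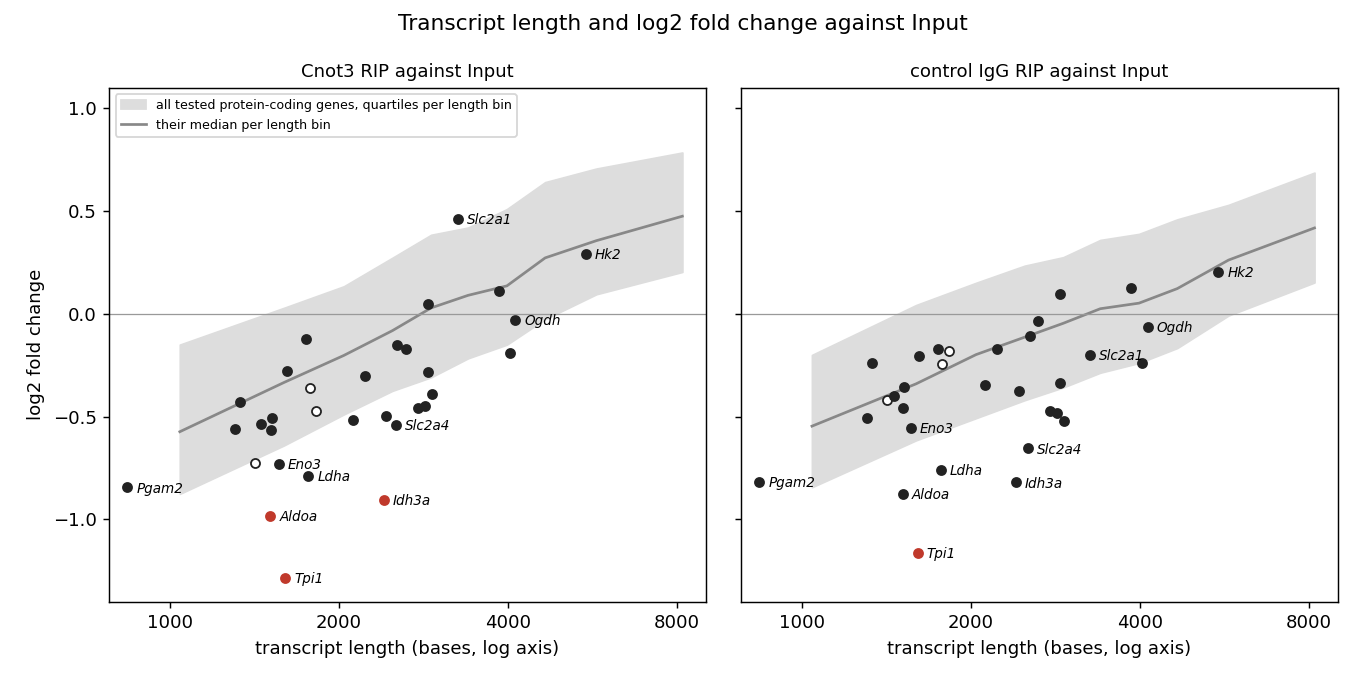
Transcript length (horizontal axis, bases, log axis) against log2 fold change relative to Input in Cnot3 RIP (left) and control IgG RIP (right), 1 point per tested gene, with red for a limma adjusted p under 0.05 and open circles for Gapdh, Pgk1 and Pgam1. The grey line and band are the median and quartiles of all tested protein-coding genes in 10 equal-sized classes of transcript length, and most points lie on or below the line, with Tpi1 lowest at −1.28 and −1.16, though on the deposited CPM 26 of the 32 points on the left and 25 on the right change sign.

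The libraries of a group also differed among themselves in a way that took in nearly the whole pathway. In control IgG RIP, 31 of the 32 tested genes were higher in replicate 1 than in replicate 2, with a median log2 difference of 0.38 beside −0.01 over all tested genes. In Input, 29 of the 32 were higher in replicate 2, with a median of −0.27 for replicate 1 minus replicate 2 beside −0.01, and in Cnot3 RIP 21 of the 32 were higher in replicate 2. Input replicate 2 held the highest of the 6 values for 22 of the 32 genes and control IgG RIP replicate 2 the lowest for 23.

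The summed cardiomyocyte markers moved with these replicate differences, and the sums of fibroblast, endothelial and smooth muscle markers moved the other way. The 8 cardiomyocyte markers summed to 29337 and 30393 scaled CPM in the Cnot3 RIP libraries, 41135 and 24240 in the IgG libraries, and 23053 and 27629 in the Input libraries. The 6 fibroblast markers summed to 916 and 436 scaled CPM in the Cnot3 RIP libraries, 520 and 838 in the IgG libraries, and 716 and 571 in the Input libraries, and none of them was at 0. The 6 endothelial markers summed to 272 to 459 scaled CPM and the 5 markers of smooth muscle and pericytes to 157 to 304, in both cases with the lower sum in control IgG RIP replicate 1, Input replicate 2 and Cnot3 RIP replicate 2 of each group. The 6 leukocyte markers summed to 57.4 and 40.8 scaled CPM in the Cnot3 RIP libraries, 52.8 and 62.4 in the IgG libraries, and 55.5 and 65.5 in the Input libraries, so in Input they were higher in the same library as the cardiomyocyte markers. The cardiomyocyte sums of Cnot3 RIP lay above both Input sums. Myh6, at 8216 to 23525 scaled CPM, weighs most in these sums, and Tnni3 (289 to 929) and Myl2 (445 to 1442) weigh less. Most of the pathway lay below Input, and the part of cell makeup in the pathway's values was not tested.

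Ratios of 2 genes for the same step within a library do not depend on the scaling between libraries. Slc2a1 had 0.054 and 0.096 times the reads of Slc2a4 in the Cnot3 RIP libraries, 0.050 and 0.047 in the IgG libraries, and 0.036 and 0.035 in the Input libraries, so the groups did not overlap and Cnot3 RIP replicate 2 stood apart. Hk2 had 2.11 and 3.34 times the reads of Hk1 in the Cnot3 RIP libraries, 2.70 and 2.26 in the IgG libraries, and 2.29 and 2.39 in the Input libraries, and the groups overlapped. Ldha had 0.505 and 0.497 times the reads of Ldhb in the Cnot3 RIP libraries, 0.458 and 0.528 in the IgG libraries, and 0.679 and 0.507 in the Input libraries. Per transcript length Ldhb exceeded Ldha in every library, with ratios of Ldhb to Ldha of 2.56 to 2.96 in the RIP libraries, and of 2.00 and 2.67 in Input. Pgam2 had 70.6 to 93.9 times the reads of Pgam1 in the Cnot3 RIP libraries, 58.1 to 96.4 in the IgG libraries and 104 to 109 in the Input libraries, a ratio that inherits the uncertain count of Pgam1. With 2 libraries a group, an exact permutation test of such a ratio cannot give a p under 0.333.

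**Figure D5:**
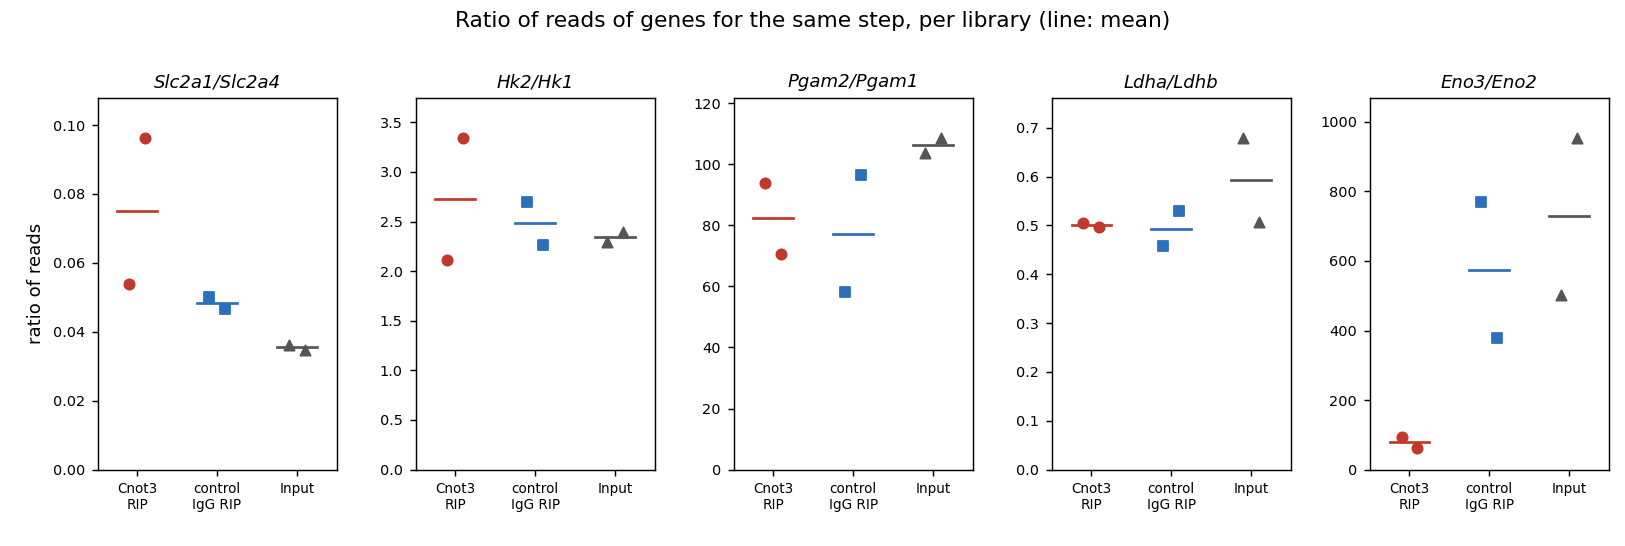
Ratio of the reads of 2 genes for the same step in each library (vertical axes from 0, points), with the mean of each group as a line, for Cnot3 RIP, control IgG RIP and Input from left to right in each panel. Eno3/Eno2 averages 78.3 with the Cnot3 antibody, 573 with control IgG and 728 in Input, whereas the groups overlap in Hk2/Hk1.

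Among 47 further genes of glycolysis, its regulation and the cycle, 38 were tested. Limma called 1 of them higher with the Cnot3 antibody than with control IgG and 0 lower, beside 1.54% and 0.277% of all tested genes. The called gene was Eno2, the enolase typical of neurons, with 1.96 and 2.85 scaled CPM in the Cnot3 RIP libraries, 0.288 and 0.498 in the IgG libraries, and 0.554 and 0.338 in the Input libraries. Both Cnot3 RIP libraries, at 55 and 95 reads, stood above all others, which had 5 to 11 reads. The log2 fold change was 2.04 against control IgG RIP (SE 0.38, limma adjusted p = 0.0361) and 1.93 against Input (SE 0.38, limma adjusted p = 0.0221). The Eno2 call against control IgG RIP was absent on CPM without Rn45s, with no filter on low values and in a fit of only the 4 libraries compared. On CPM without Rn45s the call against Input was absent as well. Leaving out Cnot3 RIP replicate 2, control IgG RIP replicate 1 or control IgG RIP replicate 2 raised the adjusted p against control IgG RIP to 0.253, 0.371 and 0.0716, at log2 fold changes of 1.78, 1.78 and 2.26. Against Input the adjusted p rose to 0.128 without Cnot3 RIP replicate 2, 0.0755 without Input replicate 1 and 0.167 without Input replicate 2. Because Eno1 had no reads, Eno2 was also set against Eno3 in place of the pair Eno3 and Eno1. Eno3 had 94.9 and 61.6 times the reads of Eno2 in the Cnot3 RIP libraries, 769 and 378 times in the IgG libraries, and 503 and 954 times in the Input libraries.

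The 3′ noncoding sequence of Eno2 carries a run of TATTTAT, the core letters of the AU-rich elements that occur in many short-lived mRNAs, and it is shown beside stretches of Hk2 and Slc2a1, picked because they stood highest of the 33 in Cnot3 RIP against Input, with the motif in capitals.
Eno2, chr6:124760761-124760790, minus strand: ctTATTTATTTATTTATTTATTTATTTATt
Hk2, chr6:82726563-82726592, minus strand: atgtaagtaatgTATTTATatgttcctttg
Slc2a1, chr4:119137183-119137212, plus strand: atagatggaagaTATTTATatattttttgg
Counted on the transcript strand with overlapping copies included, the 3′ noncoding sequence of Eno2 held 10 copies in 1238 bases, that of Hk2 held 2 and that of Slc2a1 held 1. Of the 33 genes Dlat held the most, at 3 copies, and Cs and Sucla2 held 2 each, as many as Hk2. Dlat, Cs and Sucla2 had log2 fold changes of −0.19, −0.39 and −0.30 in Cnot3 RIP against Input. Of 11924 tested genes with such sequence, 6 held 10 or more copies (0.0503%), a limit set at the count of Eno2. At least 1 copy was present in 10 of the 33 genes (30.3%), beside 29.5% of the tested genes. Per kilobase of 3′ noncoding sequence the 33 genes held 0.626 copies, beside 0.293 over the tested genes, with a median 3′ noncoding length of 656 bases beside 1089 bases. A match of these letters describes the sequence and is not evidence of a binding site.

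In Cnot3 RIP against Input, limma called 1 of the 38 further genes higher, Eno2, and 3 lower. Of all tested genes, 5.86% were called higher and 2.47% lower there. Mpc2, a subunit of the mitochondrial pyruvate carrier, was at 22.7 and 16.9 scaled CPM in the Cnot3 RIP libraries, 21.7 and 27.1 in the IgG libraries, and 45.5 and 44.1 in the Input libraries. Its log2 fold change in Cnot3 RIP against Input was −1.18 (SE 0.24, limma adjusted p = 0.0232). Sdhc and Sdhd, the membrane anchors of succinate dehydrogenase, had log2 fold changes of −0.95 (SE 0.22, limma adjusted p = 0.0322) and −0.92 (SE 0.21, limma adjusted p = 0.0340) in the same comparison, and of 0.12 and 0.16 on the deposited CPM. Control IgG RIP stood with Cnot3 RIP in all 3 genes, at −0.88, −0.88 and −0.91 against Input, and Sdhd was the only further gene called there (limma adjusted p = 0.0476). Of all tested genes, 2.58% were called higher and 1.49% lower in control IgG RIP against Input. The calls of Mpc2, Sdhc and Sdhd in Cnot3 RIP against Input were each lost without Cnot3 RIP replicate 2 or without either Input library, at adjusted p-values of 0.0990 to 0.249, and that of Sdhd also without Cnot3 RIP replicate 1 (limma adjusted p = 0.0513). In control IgG RIP against Input the Sdhd call was lost when any 1 of the 4 libraries compared was left out (limma adjusted p 0.132 to 0.326). Mpc1, the partner of Mpc2 in the carrier and singled out after its values were seen, had only 0.692 to 2.03 scaled CPM over the 6 libraries, and 44.2% of its 50-base windows occur in other genes. Got2, the mitochondrial aspartate aminotransferase, shared 47.2% and was abundant, at 67.4 to 120.1 scaled CPM. Pfkfb3, which makes the activator of phosphofructokinase, was at 7.62 and 17.5 scaled CPM in the Cnot3 RIP libraries, 7.61 and 5.03 in the IgG libraries, and 3.14 and 5.55 in the Input libraries. Its log2 fold changes of 0.87 (SE 0.42) against control IgG RIP and 1.41 (SE 0.42) against Input did not pass the threshold. Over the 38 genes the median log2 fold change was −0.04 in Cnot3 RIP against control IgG RIP, −0.10 in Cnot3 RIP against Input and −0.16 in control IgG RIP against Input.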

How the data were processed

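RNA from Cnot3 RIP, control IgG RIP and Input was sequenced in 2 libraries each. The authors deposited 1 table of CPM values per gene symbol and library; per the submitters' processing notes, CASAVA 1.8, FastQC, Bowtie2 2.2.5, TopHat2 2.1.0, edgeR and the mm10 build were used, with no read counter, gene annotation, strand setting or rule for reads that fit several genes given in the sources used here. Every CPM value was a whole number of reads within 0.01 read (100% of 146526 values, largest deviation 0.000983), so library totals and read counts were recovered from the deposited values.

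Genes with low counts were removed (edgeR 4.0.16 filterByExpr, minimum count 10), which left 13010. CPM values were rescaled by TMM factors, and limma 3.58.1 (R 4.3.3) was fitted to log2(scaled CPM + 0.25) over all 6 libraries with 3 group means, a trended prior, 3 residual and 6.24 prior degrees of freedom. Fold changes are on that scale, which understates changes of low genes. Adjusted p-values are Benjamini-Hochberg over all tested genes, and a gene was called at an adjusted p under 0.05. Alternatives were other scalings, pseudocounts and filters, edgeR's quasi-likelihood test and DESeq2 1.42.0 on recovered reads, a replicate block, only the 4 libraries compared, and each library left out. Medians without Gapdh, Pgk1, Pgam1 and Eno1 were added after the data were seen. The 95% intervals of fold changes are limma's and reflect the spread between libraries, while limits for 0 reads cover counting error only.

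Transcript lengths, coordinates and sequences came from GENCODE M21 on GRCm38 (mm10), with 1 protein-coding transcript per gene. The 33 genes, the 47 further pathway genes and the cell type markers were chosen with earlier results of these data known. All 33 were named, with full values for called genes and gene pairs, and of the further genes those called and at most 6 with the smallest limma p in each comparison.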

Additional observations from a re-analysis of the deposited data

How the results depend on the processing

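Counts of genes called in Cnot3 RIP against control IgG RIP, Cnot3 RIP against Input and control IgG RIP against Input were 236, 1083 and 530. They were 625, 7759 and 4393 on the deposited CPM, where 19 and 5 of the 32 genes were called (all higher) in the last 2 comparisons and 23 and 10 of the further pathway genes, with medians of the 32 of 0.25, 0.60 and 0.39. Besides changes of sign without a call under either scaling, log2 fold changes of genes called under one of them turned positive there in Cnot3 RIP against Input for Gpi1 (0.79), Aldoa (0.10), Pkm (0.58), Pdha1 (0.63), Dlat (0.89), Dld (0.93), Cs (0.69), Idh2 (0.96), Idh3a (0.18), Idh3b (0.80), Idh3g (0.65), Ogdh (1.05), Dlst (0.62), Sucla2 (0.78), Suclg1 (0.57), Fh1 (0.91), Mdh1 (0.56), Sdhc (0.12) and Sdhd (0.16), and in control IgG RIP against Input for Dld (0.66) and Fh1 (0.73). CPM without Rn45s gave 609 genes in Cnot3 RIP against Input and 211 in control IgG RIP against Input, and 0 further pathway genes in Cnot3 RIP against control IgG RIP. With no filter, 35 genes were called against control IgG RIP and 548 in Cnot3 RIP against Input, with 1 of the 32 there and 0, 2 and 0 further pathway genes. DESeq2 called 720 genes against control IgG RIP, 6 and 3 of the 32 against Input, and 2 further genes in control IgG RIP against Input. A fit of only the 4 libraries compared called 112 genes against control IgG RIP and 1002 in control IgG RIP against Input, with 0 and 5 further genes. edgeR's quasi-likelihood test called 339 genes in control IgG RIP against Input, and it and a pseudocount of 0.05 called 0 further genes there. With a replicate block, 385 genes were called against control IgG RIP and 325 in control IgG RIP against Input, with 1 of the 32 in Cnot3 RIP against Input and 0 in control IgG RIP against Input, and 2 and 0 further genes there. The labels do not say whether the replicate numbers pair the samples. Across 13010 genes, replicate differences correlated at −0.317 between Cnot3 RIP and control IgG RIP and at 0.339 between Cnot3 RIP and Input. Between control IgG RIP and Input the correlation was −0.327, and these mixed signs do not settle the pairing. Leaving out 1 library at a time gave 0 to 1306, 12 to 1970 and 20 to 895 genes, 0 to 1, 0 to 3 and 0 to 1 of the 32, 0 to 2, 0 to 5 and 0 to 3 further genes, and medians of −0.27 to 0.11, −0.61 to −0.32 and −0.56 to −0.14. The cause of these changes was not tested. Of 512, 510 and 512 values of the 32 genes under the alternatives, 0, 18 and 6 lost a call and 1, 9 and 5 gained one with the sign kept. Gapdh, Pgam1 and Eno1 had at most 25 reads in any library, which limits their precision.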
